A study of Mus musculus with 4 samples.

Results

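The skeletal muscle spots of the day 7 heart section were spots in which 10 genes of fast skeletal muscle had at least 10 UMIs in sum, a UMI being the molecular tag that counts a captured transcript once. The 10 genes were the myosin heavy chains Myh1, Myh2 and Myh4, the troponins Tnnc2, Tnni2 and Tnnt3, the light chain Mylpf, the calcium pump Atp2a1, parvalbumin (Pvalb) and the actinin Actn3. After removal of spots with over 1% of their UMIs in hemoglobin genes, 118 of the 1848 spots of that section met this rule, out of 7503 such spots in the series. The spots were thus chosen by measured counts of these genes in the same section. All values within the section are therefore descriptions, and with 1 section of 1 mouse per day no test between spots was made.

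The series holds Visium data, in which a slide printed with barcoded spots collects mRNA from the tissue lying on it, so that a spot is a small region that can hold several cells of different types. The samples were hearts of adult ICR (CD1) mice, given in the methods as females of 12 weeks, infarcted by tying off the left anterior descending coronary artery for good. Fresh-frozen hearts were collected on days 1, 4, 7 and 14, with 1 mouse and 1 section a day and no unoperated heart among them. To reach the artery, the chest was opened between the ribs by bluntly parting the intercostal muscles, and it was closed again after the ligation. The labels name the tissue of all sections as heart and mention no skeletal muscle. The origin of the skeletal muscle transcripts was not tested. Whether the skeletal muscle spots lay side by side or at the rim of the section was not examined, as no positions entered the analysis. Median depth of the kept spots ran from 5188 UMIs in the day 7 section, the lowest, to 8799 in that of day 4. Between 1572 and 1918 spot barcodes were shared by each pair of sections and 1332 by all of them, as slides are printed with the same set.

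Striated muscle of the body and of the heart is built from the same kind of sarcomere, but from different members of many gene families. Skeletal fibres use their own actin, troponins, myosin-binding proteins, ryanodine receptor and calsequestrin, and differ among themselves by the fast or slow myosin they carry. Type 2A fibres (Myh2) are fast and oxidative, type 2X (Myh1) and 2B (Myh4) fibres are faster and lean more on glycolysis, and slow fibres share their myosin Myh7 and several partners with the ventricle.

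Within the 118 spots, UMIs of the rule genes ranged from 10 to 754 with a median of 244.5, which was 0.142% to 11.05% of the UMIs of a spot (median 5.84%). Of the 118, 26 had 400 or more, 44 had 200 to 399 and 14 had 10 to 19. All 10 genes were found in the group. Tnnc2 had a UMI in 116 spots, Mylpf in 114 and Myh1 in all 118, and the least widespread was Myh4 with a UMI in 56. In the other 1730 spots the 10 genes had 1361 UMIs in all, against 29621 in the 118, and 900 of the 1730 had none. At the threshold, 3 spots had exactly 10 UMIs, in totals of 919, 1450 and 6270, and 5 spots just outside had 9, in totals of 400 to 3805. The counts of the rule genes thus ran down to the threshold without a gap.

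Other day 7 spots served for comparison. The 865 with the highest share of the heart muscle genes Myh6 and Myl2 are called the myocardial spots, and the 865 with the lowest share the remaining spots. The share of Myh6 and Myl2 was 2.23% to 3.55% in the myocardial spots and 0% to 2.23% in the remaining spots (median 1.18%). In the skeletal muscle spots it was 0% to 1.09% with a median of 0.179%. No skeletal muscle spot reached the range of the myocardial spots, and all 118 lay below the median of the remaining spots. Depth was lower in the skeletal muscle spots, with 632 to 10362 UMIs (median 4144, total 489122). Medians were 5557 in the myocardial and 4667 in the remaining spots, with totals of 4879855 and 3923701. The remaining spots included spots with much collagen. The 346 spots richest in collagen (20% of the 1730, by Col1a1, Col1a2 and Col3a1) were therefore added as a further comparison after the values were seen, and are called the collagen-rich spots. Values are counts per 1000000 UMIs of a group of spots (CPM), with exact Poisson 95% intervals, and intervals here cover counting error only. A higher value can come from more cells of a type in a spot or from more RNA per cell, which cannot be told apart.

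**Figure D1:**
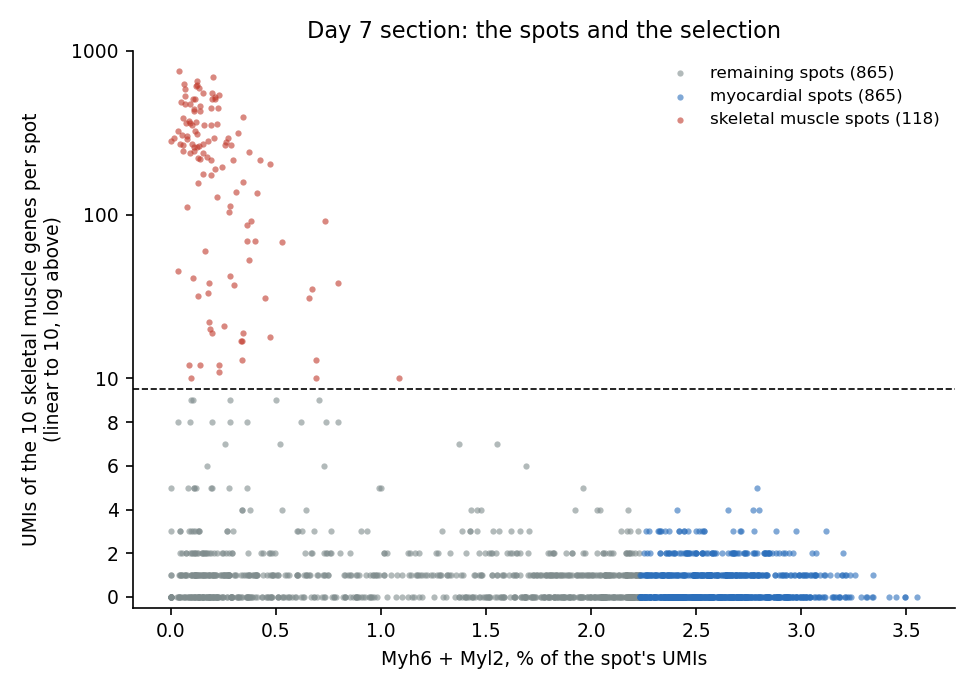
Each point is 1 of the 1848 kept spots of the day 7 section. The x axis gives the share of Myh6 and Myl2 in the UMIs of the spot in percent, and the y axis the summed UMIs of the 10 rule genes (linear up to 10, logarithmic above), with the threshold as a dashed line. The 118 skeletal muscle spots (red) all lie to the left of the myocardial spots (blue), at 1.09% or less.

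Genes of the skeletal sarcomere that the rule did not use were abundant in these spots. Acta1, the actin of the skeletal thin filament, had 24460 CPM (24024 to 24902) against 301 (286 to 317) in the myocardial spots. By spot, its count per 10000 UMIs was 0 at the lowest, 228 at the median and 384 at the highest in the skeletal muscle spots, and 0, 1.96 and 50.4 in the myocardial spots. Acta1 was thus found in 117 of the 118 spots, and the median spot lay above the highest of the myocardial spots. Acta1 is also a stress gene of the heart, and was at 727 CPM in the remaining spots. Mybpc1, the slow type of myosin-binding protein C, which fast fibres also use, differed more, with 1176 CPM (1081 to 1276) against 1.23 (0.451 to 2.68). It was found in 98 of 118 spots, with a highest value of 28 UMIs in a spot, but in 6 of 865 myocardial spots, never with more than 1 UMI.

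Further parts of the sarcomere mostly had the same direction. Myom2 and Lmod2 did not, with medians of 0 per 10000 UMIs against 3.24 and 1.795 in the myocardial spots. The light chain Myl1 stood at 4263 against 68.4 CPM, the tropomyosin Tpm2 at 4451 against 36.5, and the giant ruler protein nebulin (Neb) at 887 against 4.10. The fast myosin-binding protein Mybpc2 had 887 against 10.5, and the Z-disc protein Myoz1, an anchor of calcineurin, had 613 against 1.23. By spot, Myl1 per 10000 UMIs ranged from 0 through a median of 38.4 to 100 in the skeletal muscle spots and from 0 through 0 to 8.25 in the myocardial spots. Each of these genes had spots without a UMI in both groups, so that their ranges overlapped at 0.

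The heart's counterparts of these genes went the other way. Cardiac actin (Actc1) had 893 CPM (812 to 981) against 9975 (9886 to 10064) in the myocardial spots. Cardiac troponin I (Tnni3) was 25.7-fold lower, at 280 against 7210 CPM, and per 10000 UMIs it ran from 0 through 2.58 to 30.2 in the skeletal muscle spots and from 32.6 through 72.0 to 126 in the myocardial spots, with no overlap. The ventricular light chain Myl3 was 15.1-fold lower, cardiac troponin T (Tnnt2) 10.4-fold, the cardiac myosin-binding protein Mybpc3 10.4-fold and troponin C of slow and cardiac muscle (Tnnc1) 12.6-fold. For actin, the light chains and the myosin-binding proteins, skeletal members that the rule did not use were thus higher in the skeletal muscle spots and the cardiac members lower. The fast skeletal troponins belong to the rule and show nothing here. The alpha-actinin Actn2, which heart and skeletal muscle share, did neither, with 1180 against 1206 CPM (log2 ratio -0.03, interval -0.16 to 0.09).

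The apparatus that couples excitation to calcium release differed in its isoforms in the same manner. The ryanodine receptor of skeletal muscle, Ryr1, had 603 CPM (536 to 676) against 1.64 (0.708 to 3.23), while the cardiac receptor Ryr2 had 14.3 (7 UMIs in all) against 386. Of the calsequestrins, which bind calcium within the reticulum, skeletal Casq1 was higher in the skeletal muscle spots (1259 against 14.8 CPM) and cardiac Casq2 lower (83.8 against 512). The voltage sensor of skeletal muscle, Cacna1s, had 227 CPM against 6.97, and its cardiac relative Cacna1c had 18.4 against 116. Sarcolipin (Sln), a brake on the calcium pump used by skeletal muscle and atrium, had 185 UMIs against 4. The triad proteins Jsrp1 and Sypl2 had 116 against 11 and 110 against 4. As the myocardial spots held 4879855 UMIs against 489122, these raw counts understate the difference. Not all triad genes were higher, as Srl had a median of 1.965 per 10000 UMIs against 3.26. Of atrial genes, Myl7 had 1 UMI in the skeletal muscle spots and Bmp10 had none in any kept day 7 spot. Such counts do not show whether atrial genes were lower than in the myocardial spots. The atrium list, which also holds Nppa, Sln and Myl4, summed to 726 CPM against 278. The pump regulator phospholamban (Pln) and the cardiac pump Atp2a2 were 15.2-fold and 11.1-fold lower than in the myocardial spots.

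**Figure D2:**
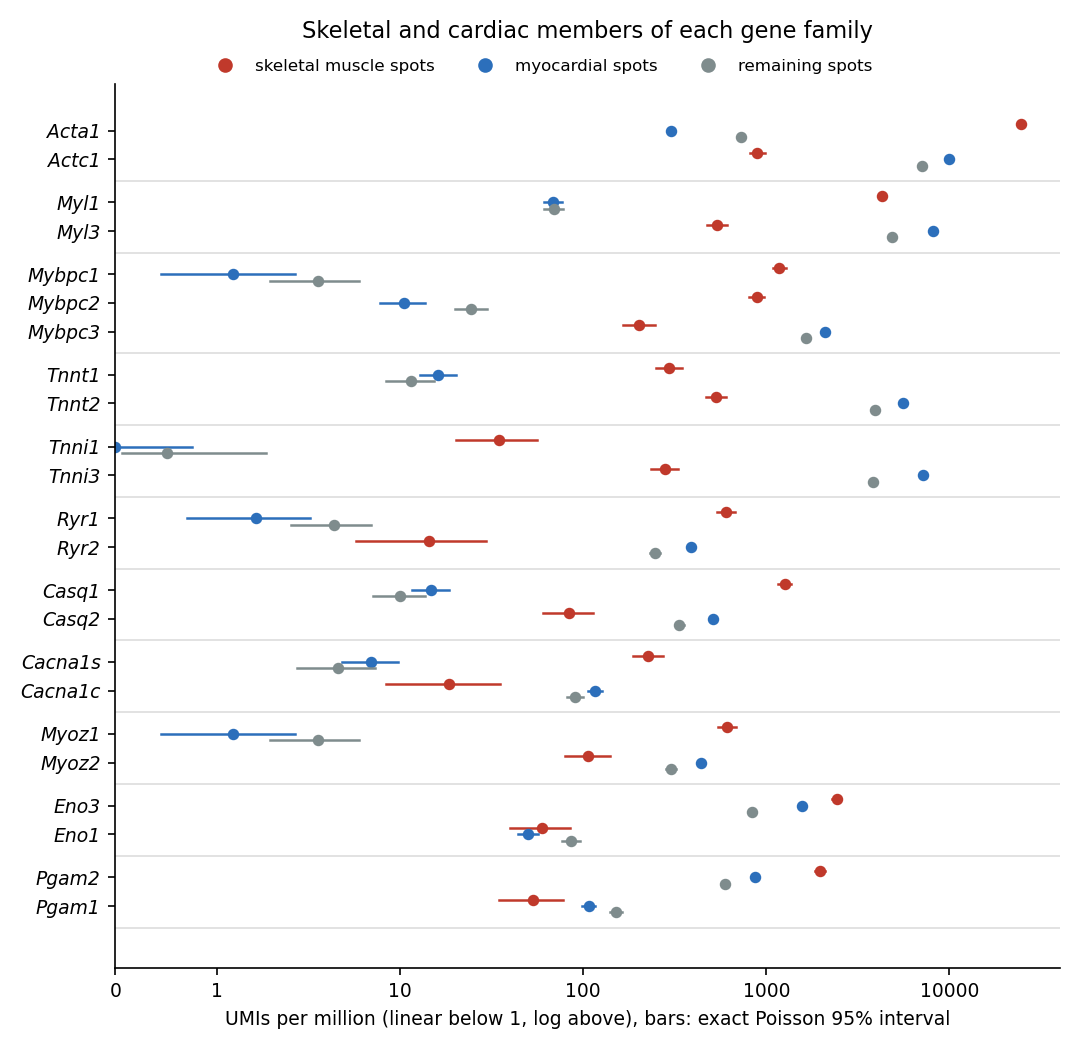
Level in CPM (x axis, linear below 1 and logarithmic above) for skeletal and cardiac members of 11 gene families in the skeletal muscle spots (red), the myocardial spots (blue) and the remaining spots (grey), with bars for the exact Poisson 95% interval. The skeletal muscle spots lie to the right for Acta1, Myl1, Mybpc1, Mybpc2, Ryr1, Casq1, Cacna1s and Myoz1 and to the left for Actc1, Myl3, Mybpc3, Tnnt2, Tnni3, Ryr2, Casq2, Cacna1c and Myoz2.

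Over the 4933 genes with at least 200 UMIs in the kept day 7 spots, 12.1% were at least 2-fold higher in the skeletal muscle spots than in the myocardial spots and 9.59% at least 2-fold lower, with a median log2 ratio of 0.05. The higher genes were 55.8% of those past 2-fold, and 35.1% after TMM scaling (trimmed mean of M values, a trimmed average of gene ratios). That scaling moved every log2 ratio by -0.27, and the median of the tested genes to -0.22. Against the remaining spots, without TMM, 2.92% of genes were higher and 15.6% lower, with a median of -0.37. Lists of 15 contractile and Z-disc genes and 14 triad genes, none of them in the rule, had 17 members past that minimum. Of these 17, 12 were at least 2-fold higher than in the myocardial spots and 1, Lmod2, an actin filament elongator of heart and skeletal muscle, was 2-fold lower (log2 ratio -1.79). Some genes reach the minimum only through the skeletal muscle spots, and had to differ. Of the 17, 10 reach it without them, of which 5 were higher and 1 lower. The 12 list genes under the minimum had 4 to 185 UMIs in the skeletal muscle spots and 0 to 79 in the myocardial spots. All 12 were at least 2-fold higher by CPM, Clcn1 on only 4 UMIs. The share over all genes under the minimum was not computed, so this count has nothing to be set against. The summed level was 38473 CPM for the contractile list against 1197, and 3872 against 618 for the triad list.

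The 15 genes furthest above the myocardial spots, ranked by the lower bound of the interval of the ratio, held 9 genes of these lists. Of these 9, Mybpc1, Mybpc2, Myoz1, Neb, Ryr1 and Casq1 reached the minimum of 200 UMIs only through the skeletal muscle spots, and Acta1, Tpm2 and Myl1 reached it without them. The other 6 were Car3, H19, Ddit4l, Cfd, Scd1 and Spp1, of which the last 3 are described further on. Of these 6, Car3, Ddit4l and Cfd also reached the minimum only through the skeletal muscle spots, while H19 and Spp1 reached it without them. Carbonic anhydrase 3 (Car3), an abundant enzyme of muscle and fat, had 1681 CPM against 4.71, and was found in 99 of 118 spots. The imprinted non-coding RNA H19, which adult skeletal muscle keeps, had 1501 against 13.9 CPM. It was found in 103 of 118 spots with a median of 11.8 per 10000 UMIs, in 56 of 865 myocardial spots and in 283 of 865 remaining spots. Ddit4l, an inhibitor of growth signalling through mTOR, had 368 against 2.46 CPM and was found in 64 spots. Car3 was among the 8 genes furthest above the remaining spots as well, with Mybpc1, Myoz1, Ryr1, Neb, Tpm2, Casq1 and Myl1.

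Among the 15 genes furthest below the myocardial spots, 9 were sarcomere or calcium genes named above. Of the others, the LIM protein Fhl2 was 17.4-fold lower, and the heart hormone Nppb had 51.1 CPM against 758. Corin, the heart protease that activates natriuretic peptides, had no UMI in the 118 spots and 363 in the myocardial spots, at least 12.1-fold lower with 3 UMIs as the limit that a count of 0 allows over the group. The potassium channel genes Kcnip2 and Kcnk3 had 3 and 7 UMIs against 759 and 1241, and the cardiac light chain kinase Mylk3 had 4 against 765. As the myocardial spots held 4879855 UMIs against 489122, these raw counts overstate the difference. Median counts per 10000 UMIs were 0 for all of them, against 1.51, 2.02 and 1.47. All 19 genes of a cardiomyocyte list, which also holds the transcription factors Gata4, Tbx20, Hand2 and Nkx2-5, were at least 2-fold lower than in the myocardial spots (median log2 ratio -2.94). Against the remaining spots 18 of 19 were lower. The shares of all genes 2-fold lower in these comparisons were 9.59% and 15.6%. The list summed to 2482 CPM in the skeletal muscle spots, 31371 in the myocardial spots and 7206 in the collagen-rich spots, so that it was low but not absent. The myocardial spots were themselves chosen on heart muscle genes.

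Promoter sequences are shown for the actin and calsequestrin families, in which the skeletal and the cardiac member parted. Mybpc1, the gene furthest above the myocardial spots, is shown as well. Other families that parted are not shown, so these windows do not stand for all. Muscle regulatory factors of the MyoD family, which specify skeletal muscle, bind E-boxes (CANNTG), often in the form CAGCTG, which reads the same on both strands. The 250 bases before the RefSeq start of each gene follow on its own strand (GRCm38.p6), with CAGCTG in capitals.

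Acta1, chr8:123894776-123895025, minus strand: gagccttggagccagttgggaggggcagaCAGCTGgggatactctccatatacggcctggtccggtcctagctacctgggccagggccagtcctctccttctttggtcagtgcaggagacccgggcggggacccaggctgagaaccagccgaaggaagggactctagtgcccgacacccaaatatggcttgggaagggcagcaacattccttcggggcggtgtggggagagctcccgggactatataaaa
Actc1, chr2:114052876-114053125, minus strand: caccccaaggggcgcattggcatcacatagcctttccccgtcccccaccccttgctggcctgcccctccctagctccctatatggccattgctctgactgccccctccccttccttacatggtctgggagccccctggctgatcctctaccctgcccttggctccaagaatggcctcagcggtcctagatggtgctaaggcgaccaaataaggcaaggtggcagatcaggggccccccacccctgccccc
Casq1, chr1:172219896-172220145, minus strand: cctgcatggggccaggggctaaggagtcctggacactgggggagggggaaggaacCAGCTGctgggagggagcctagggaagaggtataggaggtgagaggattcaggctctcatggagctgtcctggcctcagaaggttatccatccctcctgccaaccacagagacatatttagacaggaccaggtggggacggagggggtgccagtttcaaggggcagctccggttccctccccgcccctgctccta
Casq2, chr3:102086165-102086414, plus strand: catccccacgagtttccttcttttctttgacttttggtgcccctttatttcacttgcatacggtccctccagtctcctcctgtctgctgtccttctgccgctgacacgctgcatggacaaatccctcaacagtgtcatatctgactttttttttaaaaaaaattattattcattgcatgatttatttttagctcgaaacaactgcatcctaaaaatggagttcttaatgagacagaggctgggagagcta
Mybpc1, chr10:88605153-88605402, minus strand: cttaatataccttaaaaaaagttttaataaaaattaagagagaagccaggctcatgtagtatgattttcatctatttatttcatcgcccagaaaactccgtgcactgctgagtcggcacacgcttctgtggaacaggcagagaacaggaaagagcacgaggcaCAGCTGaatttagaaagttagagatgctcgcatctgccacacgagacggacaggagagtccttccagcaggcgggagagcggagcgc

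CAGCTG stood once in the windows of Acta1 (218 bases before the start), Casq1 (192 bases) and Mybpc1 (84 bases), and in neither of the cardiac windows shown. Over all 32851 windows of this length, 13% held it. For the 29 skeletal genes of both lists, 16 had a window in RefSeq and 9 of their 17 windows (52.9%) held CAGCTG. So did 3 of 8 windows of the rule genes and 3 of 23 of the cardiomyocyte list. Of a list of skeletal metabolism genes, 7 of 23 windows (30.4%) held it. The wider form CANNTG, which includes CAGCTG, was in 66.2% of all windows, 82.4% of the skeletal and 73.9% of the cardiomyocyte windows. A match is a run of letters, and binding was not measured.

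Genes of fast energy supply, many of which the heart also uses, stood less far above the myocardial spots than the contractile list. The 19 metabolism genes summed to 37152 CPM against 15308, and 10911 in the remaining spots. Of 17 metabolism genes past the minimum, 7 were at least 2-fold higher than in the myocardial spots and 13 than in the remaining spots. The shares of all genes 2-fold higher were 12.1% and 2.92%. No metabolism gene was 2-fold lower in either comparison. Muscle creatine kinase (Ckm) had 12827 CPM (12512 to 13149) against 2804 (2757 to 2851). Per 10000 UMIs, it ran from 0 through 124 to 218 in the skeletal muscle spots and from 2.22 through 27.5 to 62.2 in the myocardial spots, so that the median spot again lay above the highest myocardial spot. The glycolytic enzymes Aldoa, Pgam2 and Pygm (glycogen phosphorylase) were 2.64-fold, 2.25-fold and 2.19-fold higher, and Gpd1 of the glycerol phosphate shuttle had 180 CPM against 25.4. Eno3, the enolase of striated muscle, differed by 1.55-fold. Ampd1, the AMP deaminase of skeletal muscle, had 106 UMIs in the skeletal muscle spots and none in the myocardial spots, at least 352.5-fold higher by CPM against the limit of 3 UMIs.

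Genes of fat use were mostly lower than in the myocardial spots. Of 14 fatty acid oxidation genes, 10 were at least 2-fold lower and 1 higher (median log2 ratio -1.32). Against the remaining spots 3 were lower and 1 higher (median -0.45). Over all genes, 9.59% were lower and 12.1% higher than in the myocardial spots, and 15.6% and 2.92% against the remaining spots. The counts of these 14 genes against the remaining spots lie near those shares. The fatty acid carrier Fabp3 and lipoprotein lipase (Lpl) were each 3.78-fold lower, and Hadhb of the oxidation cycle was 2.52-fold lower. The gene higher in both comparisons was Pdk4, a brake on glucose oxidation, with 164 CPM against 51.6 and 31.4. Myoglobin (Mb), chosen after its values were seen, was 2.31-fold lower. Transcripts for respiration differed less. Of 18 respiratory isoforms and mitochondrial transcripts none was 2-fold higher and 1, Cox7a1, was 2-fold lower, and the median log2 ratio was -0.20 against the myocardial and 0.21 against the remaining spots.

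Genes of the slow fibre program, which ventricle and slow skeletal fibres share, were mostly low. Of 8, 5 were at least 2-fold lower and 2 at least 2-fold higher than in the myocardial spots, where the shares of all genes were 9.59% and 12.1%. The higher ones were Tpm3 (87.9 against 34.6 CPM), which non-muscle cells also use, and slow troponin T (Tnnt1), with 294 against 16.2. Slow troponin I (Tnni1), under the minimum, had 17 UMIs against none. The slow myosin Myh7 had 380 CPM against 692 in the myocardial and 2172 in the remaining spots. Tnnt1 was found in 62 of 118 spots and in 76 of 865 myocardial spots. The other slow genes were all below the myocardial spots.

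Most markers of repair in skeletal muscle had few UMIs. The fate factor of adult fibres Myf6 had 28 UMIs in 22 of the skeletal muscle spots and none in any other kept spot of the section. Myod1 had 11 UMIs and myogenin (Myog) 8, the fusion genes Mymk and Mymx 1 and 2, and the satellite cell factor Pax7 none. The embryonic and neonatal myosins Myh3 and Myh8 had 1 and 2 UMIs. The acetylcholine receptor subunits of the synapse on muscle, Chrna1, Chrnd, Chrng and Chrne, had 8, 2, 1 and 3. Such counts, over 489122 UMIs, do not resolve the levels of these genes. Of 19 genes on that list only desmin (Des) passed the minimum, with 1501 against 876 CPM. Myl4, Myf5, Cdh15, Chrnb1, Musk and Ncam1, also on the list, were under it. The whole list summed to 1764 CPM, most of it Des, against 888 in the myocardial and 1030 in the remaining spots. Few UMIs thus do not mean levels below those of the myocardial spots. Of 6 tested genes of muscle wasting and denervation, the ubiquitin ligase Fbxo32 had a log2 ratio of 1.21 against the myocardial spots and 1.22 against the remaining spots, while its partner in atrophy Trim63 had -0.03 and 0.35. The metallothionein Mt2 was higher than in the myocardial spots (1.28) but lower than in the remaining spots (-1.06), and the stretch gene Ankrd1 was lower in both (-2.50 and -3.41).

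Stress genes of the infarct border were mostly lower than in the remaining spots. Nppa was at 298.5 CPM against 275 in the myocardial spots and 2668 in the remaining spots, and clusterin (Clu) at 951 against 935 and 4998. Of the 11 border genes, 3 were at least 2-fold higher than in the myocardial spots, Acta1 among them, and 2 lower. Against the remaining spots 2 were higher and 6 lower. Over all genes, 12.1% were higher and 9.59% lower than in the myocardial spots, and 2.92% and 15.6% against the remaining spots. Xirp2, an actin-binding protein of both muscle types, was higher in both (log2 ratios 1.43 and 1.11).

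**Figure D3:**
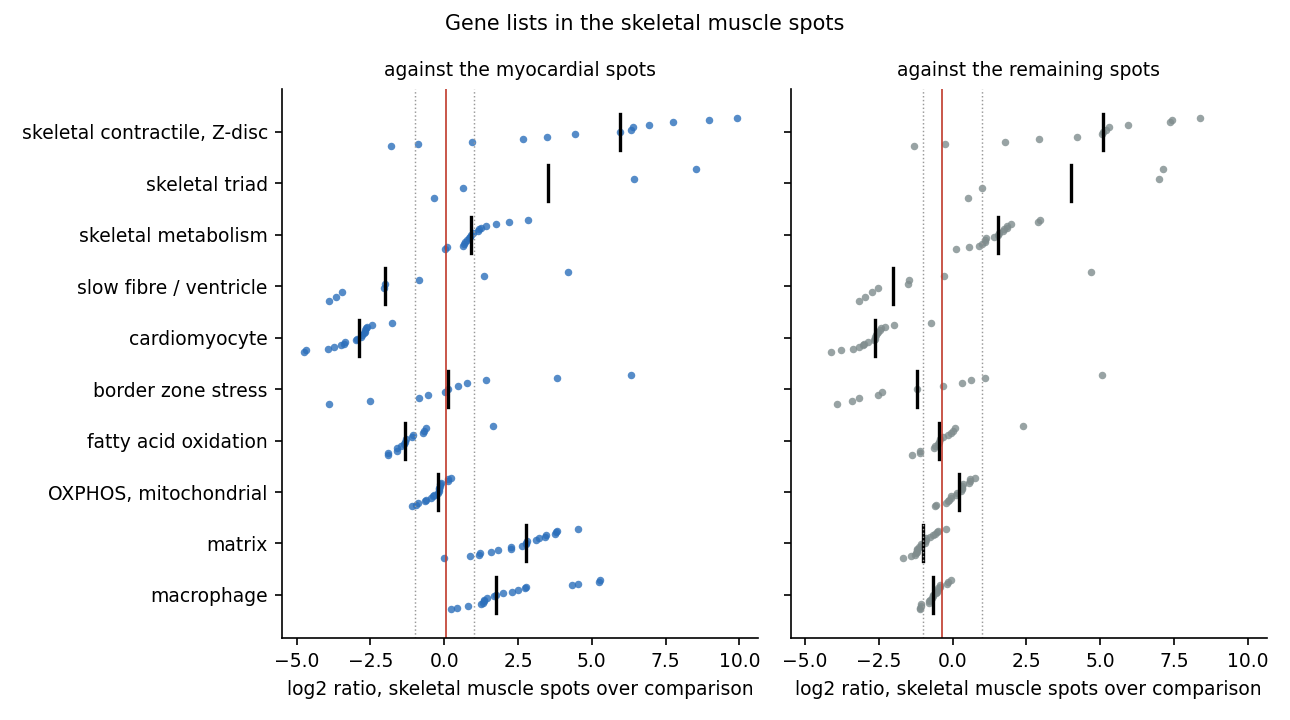
Log2 ratio of the level in the skeletal muscle spots over that in the myocardial spots (left, blue) or the remaining spots (right, grey), 1 point for each gene past the minimum of 200 UMIs and 1 row for each list. Black bars are list medians, the red line is the median of all 4933 genes (0.05 left, -0.37 right) and the dotted lines mark 2-fold. Matrix and macrophage genes lie right of the red line against the myocardial spots (medians 2.77 and 1.75) and left of it against the remaining spots (-1.005 and -0.66).

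Matrix and macrophage genes stood between the myocardial and the collagen-rich spots. Of 20 matrix genes, 18 were at least 2-fold higher in the skeletal muscle spots than in the myocardial spots, but 10 were 2-fold lower than in the remaining spots and all 20 lower than in the collagen-rich spots, which were chosen on 3 of them. Against those spots 36.0% of all genes were 2-fold lower and 10.2% higher. The list summed to 19566 CPM in the skeletal muscle spots, 3375 in the myocardial, 33124 in the remaining and 88891 in the collagen-rich spots. Collagen 1 (Col1a1) had a UMI in all 118 spots, from 10.0 through 37.6 to 326 per 10000 UMIs. The lowest of these spots lay above the median of the myocardial spots, which was 2.40. The scar gene periostin (Postn) had 624 CPM against 92.4, 2020 and 5204 in the same order of groups. Of 19 macrophage genes 16 were 2-fold higher than in the myocardial spots, none was higher and 4 were lower than in the remaining spots, and all 19 were lower than in the collagen-rich spots. Over all genes, 12.1% were 2-fold higher than in the myocardial spots, and 2.92% were higher and 15.6% lower than in the remaining spots. The counts of macrophage genes against the remaining spots lie near those shares. Lysozyme (Lyz2) had 832 CPM in the skeletal muscle spots, against 326, 1741 and 3997.

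Genes of other cell types gave small counts. The Schwann cell list summed to 235 CPM in the skeletal muscle spots, 98.4 in the myocardial and 295 in the remaining spots. Mesothelin (Msln) of the covering epithelium had 121 CPM against 2.87 and 23.2, and the mesothelium list 260 against 16.4 and 101. The tendon list stood at 135, 28.5 and 228, the smooth muscle list at 300.5, 141 and 404, and the endothelium list at 294, 331 and 365.5. Neutrophil genes had 4 UMIs in the 118 spots, lymphocyte genes 14, cell cycle genes 28 and genes of lung, cartilage and skin 8. Genes of the atrium list summed to 726, 278 and 2675 CPM. This was mostly Nppa and Sln in the skeletal muscle spots, and mostly Nppa in the others. The part of such cells in the profile of the spots was not tested.

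The skeletal muscle spots were not uniform. They were split in 3 groups by their share of the rule genes after the values were seen, at 6.48% to 11.05% (40 spots), 5.06% to 6.39% (39 spots) and 0.142% to 5.05% (39 spots). Median depth was 5111, 4585 and 1839 UMIs. The contractile list stood at 46298, 38982 and 17028 CPM from the highest to the lowest group, which the split itself favours since these genes go with the rule genes. Matrix genes stood at 11404, 14898 and 51012, and macrophage genes at 3409, 3832 and 10480. The lowest group was thus shallow and rich in matrix and macrophage genes, above the 33124 and 7454 of the remaining spots. Cardiomyocyte genes differed less, at 2005, 2337 and 4038, and mt-Co1, a mitochondrial transcript chosen after its values were seen, stood at 50090, 53205 and 24535. As shares of 1 total, these values are not independent of each other. H19 stood at 1495 (1337.5 to 1666), 1668 (1487 to 1865) and 1149 (931 to 1401), lowest in the lowest group.

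Fat genes came mostly from few spots of the lowest group. The adipocyte list summed to 466 CPM, against 29.9 in the myocardial and 46.6 in the remaining spots. Cfd made up 178 of the 228 UMIs of the list in the skeletal muscle spots. Of 2 list genes past the minimum, 1 was at least 2-fold higher and 1 lower, against the myocardial and the remaining spots alike. Among all tested genes, 12.1% were higher and 9.59% lower than in the myocardial spots, and 2.92% and 15.6% against the remaining spots. The adipokine Cfd had 59.3, 124 and 1682 CPM in the 3 groups, and the desaturase Scd1 132, 119 and 2155. Of the 178 UMIs of Cfd, 78 lay in a single spot with 2695 UMIs in total and 20 of the rule genes, and 25 in the next. That spot also held 95 of the 233 UMIs of Scd1, and 29 of the 59 of the fatty acid synthase Fasn, which was chosen after its values were seen. Without it Cfd had 206 CPM over the other members, still above the 2.66 of the myocardial spots. Adiponectin (Adipoq) had 11 UMIs, 7 of them there. Spp1 of activated macrophages, with 143 CPM over all 118 spots, had 63.8, 81.0 and 486, against 202 in the remaining spots. These levels rest on 14, 15 and 41 UMIs, and 28 of the 41 lay in a single spot. The neuronal RNA Bc1, chosen after its values were seen, had 775, 842 and 6418 CPM in the 3 groups.

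**Figure D4:**
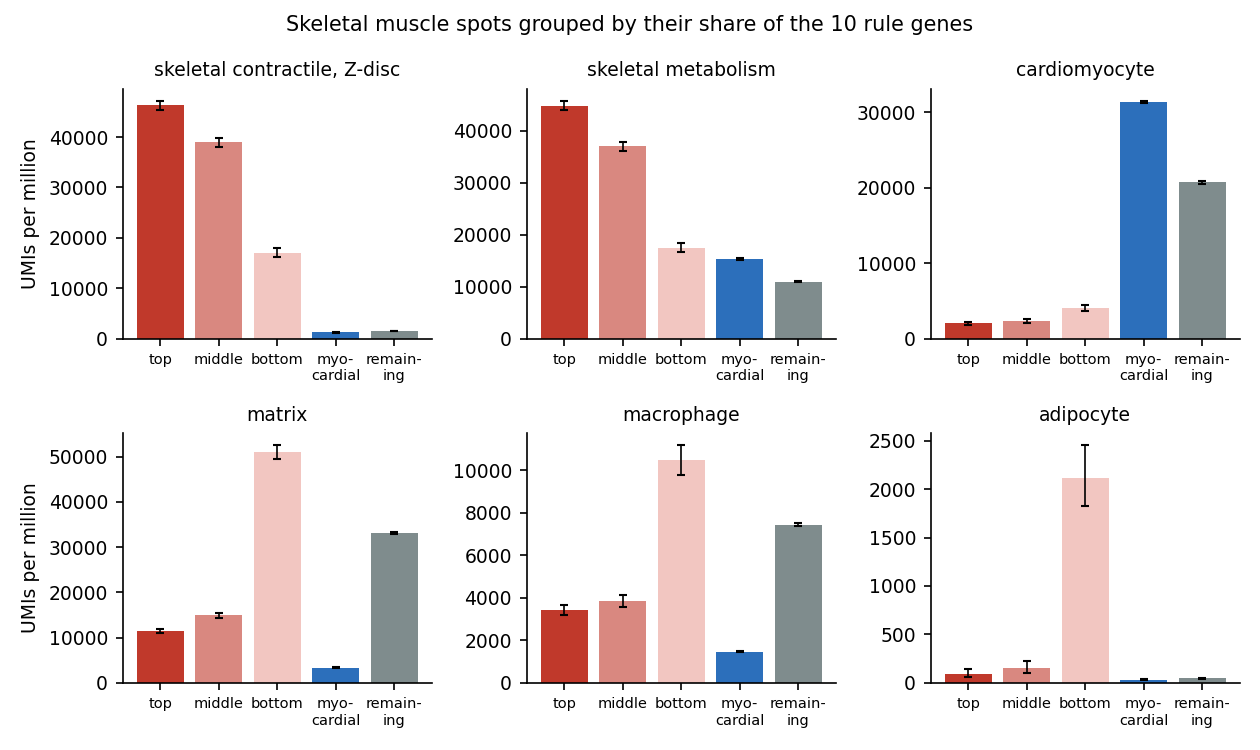
Level in CPM of 6 gene lists (bars from 0, error bars the exact Poisson 95% interval) in the skeletal muscle spots with the highest, middle and lowest share of the rule genes (top, middle, bottom, in shades of red), the myocardial spots (blue) and the remaining spots (grey). Matrix, macrophage and adipocyte lists are highest in the bottom group of 39 spots, at 51012, 10480 and 2120.

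Fast myosins differed from spot to spot. Of the 118, 87 had at least 20 UMIs of Myh1, Myh2 and Myh4 together. These genes lie side by side on chromosome 11 of GRCm38 in the plus strand, Myh2 at 67171027 to 67197517, Myh1 at 67200052 to 67224575 and Myh4 at 67238029 to 67260446, and are close copies, so that reads may be lost or shared between them in counting. Of the 3 myosins, Myh1 had a median part of 74.4% (8.33% to 97.9%), Myh2 22.1% (0% to 91.7%) and Myh4 1.22% (0% to 25.9%). Myh1 had the most UMIs in 77 spots, Myh2 in 10 and Myh4 in none. A part of the UMIs is no share of fibres, as a spot can hold several fibres and capture may differ between genes.

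The 87 spots were ordered by the Myh2 part after the values were seen, in groups of 29 with 0% to 15.1%, 15.2% to 28.2% and 28.95% to 91.7%, and median depths of 4598, 4968 and 4293. The following are descriptions of the highest over the lowest group. The intervals cover counting error only, not differences between spots, so an interval above, below or around 0 is no test. Several genes of oxidative and slow fibres were higher where Myh2 was high, and others had an interval that held 0. Tnnt1 had 502 CPM against 164 (log2 ratio 1.62, 0.92 to 2.36), and Mb 9151 against 5827 (0.65, 0.52 to 0.78). The slow and cardiac pump Atp2a2 had a log2 ratio of 0.92 (0.46 to 1.39), the lactate dehydrogenase of oxidative tissue Ldhb 0.85 (0.47 to 1.24), the mitochondrial enzyme Idh2 0.74 (0.28 to 1.204) and Fabp3 0.45 (0.17 to 0.73). The intervals held 0 for the slow myosin Myh7 (0.12, -0.49 to 0.73), for Tnnc1 (0.40, -0.32 to 1.12), Myl3 (0.21, -0.28 to 0.71), Lpl (0.14, -0.27 to 0.55), Cd36 (0.15, -0.46 to 0.77) and Cox6a2 (0.06, -0.13 to 0.25). Of other genes and lists, some were higher with the Myh2 part and some had an interval that held 0. Myl2, of slow fibres and the ventricle, had 0.90 (0.57 to 1.25), Myh6 of the heart -0.03 (-0.53 to 0.46) and the cardiomyocyte list 0.22 (-0.01 to 0.46). The nuclear RNAs Malat1 and Neat1 had 1.32 (0.70 to 1.98) and 1.16 (0.47 to 1.89), the mesothelium list 0.85 (0.04 to 1.69) and the atrium list 0.44 (0.02 to 0.86). The part of RNA quality or of other cells in the contrast was not tested.

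Several genes of glycolytic fibres ran the other way. The shuttle enzyme Gpd1 had 72.8 against 307 CPM (log2 ratio -2.08, -3.23 to -1.06) and Mybpc2 553 against 1298 (-1.23, -1.64 to -0.84). Lactate dehydrogenase A (Ldha) had a log2 ratio of -0.71, Casq1 -0.57, Eno3 -0.46, Aldoa -0.37 and Ckm -0.33, each with an interval below 0. Muscle phosphofructokinase (Pfkm) was at -0.08 (-0.39 to 0.22). Of the rule genes, Pvalb had -1.37, Actn3 -1.46 and Tnni2 -0.0033 (-0.13 to 0.13). Acta1 differed little, at 26061 against 28170 CPM (-0.11), and the respiratory list was level at 245865 against 244788.5. Matrix genes were slightly lower (-0.19, -0.28 to -0.10). Genes named for this contrast were among the 15 most raised or lowered with the Myh2 part, or chosen after their values were seen. This holds for genes of the lists too. The order by Myh2 and these genes come from the same spots.

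**Figure D5:**
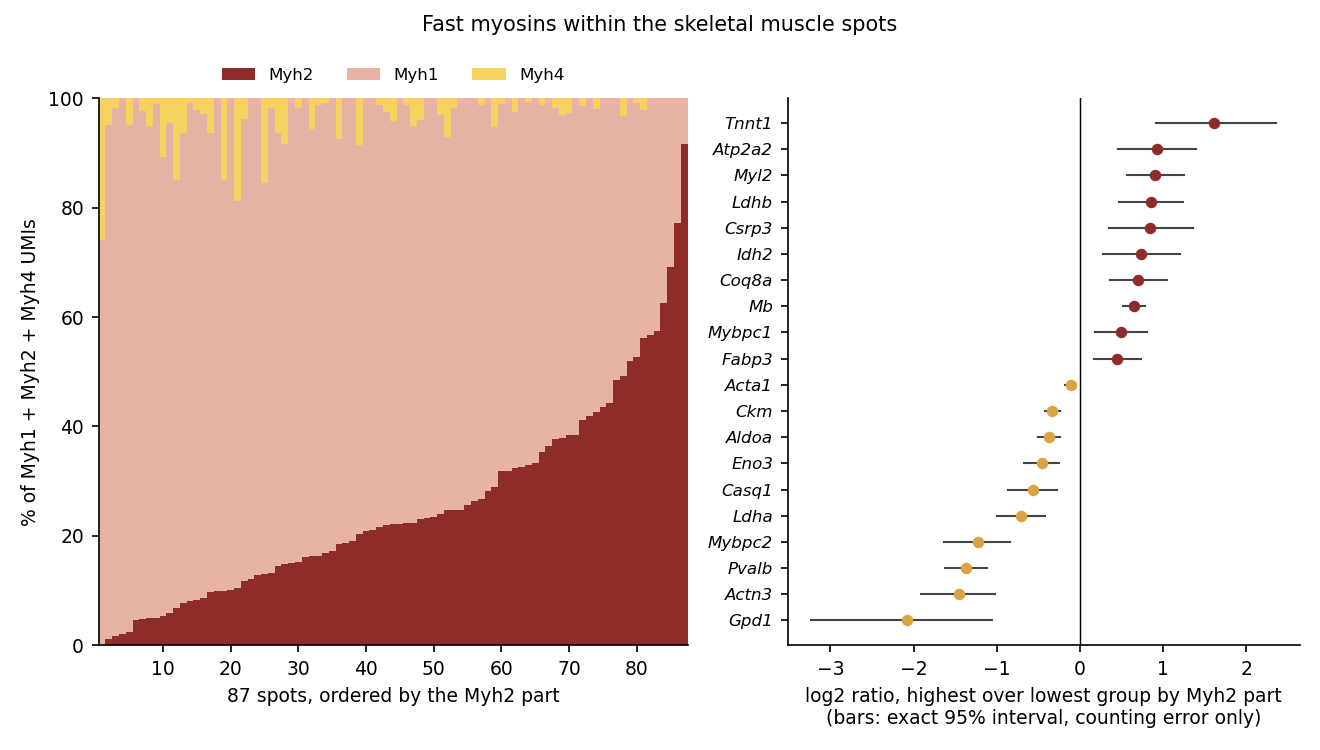
Left, the part of Myh2, Myh1 and Myh4 in their summed UMIs in percent for each of 87 skeletal muscle spots, ordered by Myh2. Right, log2 ratio of CPM in the 29 spots with the highest over the 29 with the lowest Myh2 part, with exact 95% intervals for counting error. Tnnt1 (1.62) is at the top and Gpd1 (-2.08) at the bottom.

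The other sections, which had no part in choosing the spots, held almost no UMIs of the rule genes. Their sum was 53 on day 1, 96 on day 4 and 79 on day 14, against 30982 on day 7, and the highest value in a spot was 4, 3 and 6. No spot of those days reached 10. For independent spots, a count of 0 would allow a share of up to 0.159%, 0.179% and 0.144%. Spots of 1 section are not independent, so these limits do not describe other sections. Some skeletal genes outside the rule were also scarce on the other days, and others were not. Mybpc1 had 3, 0, 595 and 1 UMIs on days 1, 4, 7 and 14, Ryr1 5, 0, 320 and 0, Myoz1 11, 13, 320 and 4, Sln 0, 1, 195 and 1, and Ampd1 0, 2, 111 and 0. Outside the 118 spots, the day 7 section still had 20 UMIs of Mybpc1, 25 of Ryr1, 20 of Myoz1, 10 of Sln and 5 of Ampd1. The 10 rule genes had 155 CPM there, against 4.43, 6.69 and 5.03 on days 1, 4 and 14. Other genes were less scarce on days 1, 4 and 14. Mybpc2 had 34.1, 16.7 and 12.9 CPM on those days, Car3 29.5, 7.735 and 5.54, and Casq1 7.11, 10.9 and 20.1. On day 7 outside the 118 spots these had 16.7, 8.75 and 12.6 CPM. H19 had 5.61, 37.3 and 2.74 CPM on days 1, 4 and 14, and 67.1 on day 7 outside the 118 spots. Acta1 was found in every section, at 2132, 663, 1753 and 679 CPM on days 1, 4, 7 and 14, and at 491 on day 7 without the skeletal muscle spots. The contractile list as a whole had 2824, 1399, 3275 and 1373 CPM, and 1319 on day 7 without these spots. The triad list had 506, 439, 702 and 581.5 CPM, and 526 on day 7 without these spots. With 1 mouse a day, the day and the mouse or section cannot be told apart.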

How the data were processed

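The authors deposited filtered UMI count matrices of 4 Visium sections, 1 per day, as whole counts per gene and spot. The submitters' processing notes name Space Ranger 1.3.0, Seurat 4.1.1 and the mouse build mm10, and spots under tissue were set by hand-aligned images. Counts of near-identical genes depend on that pipeline. Rows of 1 gene symbol were summed (32285 genes, 32245 symbols). Spots with over 1% of UMIs in 8 hemoglobin genes were left out in all sections. The paper also left out spots near the tissue edges, marked by hand, which was not done here. Whether the skeletal muscle spots were among those was not examined.

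Skeletal muscle spots were compared by summed UMIs per 1000000, with exact Poisson 95% intervals and exact conditional intervals of ratios, in genes with at least 200 UMIs over the kept day 7 spots, leaving out the 10 rule genes, Myh6 and Myl2. A gene past 2-fold was counted as higher or lower. The steps were tested on simulated data. The genes named were the 15 with the highest lower bound and the 15 with the lowest upper bound of the ratio to the myocardial spots, the 8 with the highest lower bound against the remaining spots, and those of 23 lists and 17 families of related genes. The lists were contractile, triad, metabolism, slow fibre, developing fibre, wasting, cardiomyocyte, border, fatty acid oxidation, respiration, matrix, macrophage, neutrophil, lymphocyte, Schwann cell, tendon, adipocyte, mesothelium, atrium, lung with cartilage and skin, smooth muscle, endothelium and cell cycle. Members and lists were chosen with earlier results of these data known. Splits of the skeletal muscle spots and the collagen-rich comparison were added after the data were seen. Alternatives covered the spot threshold, the hemoglobin limit, depth, the gene minimum, the comparison spots and the scaling.

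Gene positions were from GENCODE vM21 (GRCm38) and promoter windows from RefSeq (GRCm38.p6). Python 3.11.15 with numpy 2.4.6, scipy 1.17.1, pandas 2.3.3 and matplotlib 3.10.9 was used, and edgeR 4.0.16 in R 4.3.3 for TMM factors only. Kept sections held 11952107, 14350489, 9292678 and 15713779 UMIs on days 1, 4, 7 and 14.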

Additional observations from a re-analysis of the deposited data

Results flagged for a closer look

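Spots removed for their hemoglobin content held skeletal muscle genes as well, in data that the comparisons did not use. Of 336 removed day 7 spots, 14 had 10 or more UMIs of the rule genes (4.17%). For independent spots the exact 95% interval would be 2.30 to 6.89, and a count of 0 would allow up to 0.893%. Spots of 1 section are not independent, so this interval does not describe other sections. The 14 spots had 10 to 681 such UMIs (median 96.5), and 1.07% to 12.1% of their UMIs were hemoglobin. They were picked by the same threshold, so that their other genes are descriptions too. The 29 contractile and triad genes summed to 38098 CPM there (36479 to 39771), against 42345 in the 118 skeletal muscle spots. No removed spot of days 1, 4 and 14 had 10 or more.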

How the results depend on the processing

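The number of skeletal muscle spots was 104 with at least 20 and 90 with at least 50 UMIs of the rule genes, 112 with a share of at least 1%, 132 without the hemoglobin filter and 96 with a limit of 0.5%. Over all alternatives that kept the comparison spots, no 2-fold difference of a named gene changed direction (0 of 845 values, Corin left out for its count of 0). The values came from 71 genes, and any gene under 2-fold among them could not count as changed. Over all alternatives, 81 of 95 counts stayed within 1.5 times, and 267 of 1058 values of named genes lay outside the interval of the reported ratio, beside the 30 that reversed. Genes at least 2-fold higher numbered 597 against the myocardial spots, 144 against the remaining spots, 159 against all other day 7 spots and 1539 with a gene minimum of 50 UMIs. Genes 2-fold lower numbered 473, then 772 against the remaining spots, 1777 against the collagen-rich spots, 1211 at the minimum of 50 UMIs and 743 with TMM factors. Without the 39 spots of the lowest share of rule genes, 447 were higher and 573 lower. Skeletal genes higher numbered 19 in place of 12 at the minimum of 50 UMIs, as more are then counted. Among those added, Jsrp1, Sypl2 and Sln had 21, 10 and 10 UMIs outside the 118 spots. They passed only through the skeletal muscle spots and had to differ. Without the share over all genes at that minimum, the count has nothing to be set against. The choice of comparison spots decided the direction of matrix and macrophage genes. For both lists 0 were 2-fold higher against the remaining, all other and collagen-rich spots. Log2 ratios against the remaining spots were -0.50 for Spp1, -0.23 for Col1a1, -0.61 for Col1a2, -0.90 for Col3a1, -1.70 for Postn, -0.49 for Timp1, -0.90 for Tnc, -0.49 for Apoe, -1.06 for Lyz2, -0.18 for Lgals3 and -0.43 for Gpnmb. Against all other spots Postn was at -0.61 and Lyz2 at -0.20. Against the collagen-rich spots they were -2.30 for Spp1, -1.82 for Col1a1, -2.19 for Col1a2, -2.35 for Col3a1, -3.06 for Postn, -2.09 for Timp1, -2.56 for Tnc, -1.68 for Apoe, -2.26 for Lyz2, -1.83 for Lgals3 and -2.03 for Gpnmb, and turned upward for Lmod2 (0.37), Fabp3 (1.06), Lpl (0.31), Hadhb (1.36), Csrp3 (0.032) and Casq2 (0.0864). The cardiomyocyte list stood at 7206 CPM in those spots and at 31371 in the myocardial spots. With 1 section there is no replicate, and genes under about 10 UMIs in the 118 spots are not resolved. No paired analysis was possible because each day had 1 section and no test was made.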

Other observations

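Genes outside the lists, and fibronectin of the matrix list, also differed among the skeletal muscle spots. Where the share of the rule genes was lowest, fibronectin (Fn1) had 2297 CPM against 355.5 in the spots where it was highest, the intermediate filament Vim of mesenchymal cells had 1208 against 223, the interferon-induced Ifi27l2a 568 against 68.4 and the nuclear RNA Malat1 1208 against 169. Mlf1, a gene abundant in skeletal muscle, had 41, 20 and 0 UMIs from the highest to the lowest group, and Sdhb of respiratory complex II had 893, 788 and 272 CPM. With a higher Myh2 part, the mitochondrial creatine kinase Ckmt2 went from 1797 over 2042 to 2410 CPM and H19 from 1291 over 1680 to 1813, while Bc1 was at 1134, 879 and 874. All were chosen after their values were seen.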
